A study of Mus musculus with 4 samples.

Results

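The small RNAs described here are the deposited sequences that lie in, or just downstream of, the 3' untranslated region (3' UTR) of mouse Scd1. A sequence was taken as a member where its only best placement on the mouse genome NCBIM37 (mm9), with at most 1 mismatch, lay in the annotated 3' UTR or in the stretch after it that the deposited liver cluster of this gene also covers. This gave 171 members among the 7845 entries of 4 lists, 137 of 4273 in wild type (WT) liver and 34 of 560 in Miwi2-/- liver. None was found among 2634 entries for WT spleen or 378 for Miwi2-/- spleen. The gene was chosen by the number of its sequences in the liver lists, so those numbers are given as a description.

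Small RNAs were sequenced in 1 library for each tissue and genotype, from liver and spleen of adult C57BL/6 mice that were either WT or lacked MIWI2 (labelled MIWI2 KO, here Miwi2-/-). All mice are labelled C57BL/6 and adult, and no treatment is given for any of them. The number of mice behind a library, their sex and the exact age were not given in the sources used here. With 1 library a group there is no replicate check, and a test between lists compares those libraries, not the genotypes. Each list holds distinct sequences without read counts, so abundance does not enter any value below.

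Scd1 encodes stearoyl-CoA desaturase, the endoplasmic reticulum enzyme that puts the delta-9 double bond into saturated fatty acids and so makes oleate and palmitoleate. It is a lipogenic enzyme of hepatocytes and adipocytes and is induced by carbohydrate feeding and insulin. MIWI2, the product of Piwil4, is a PIWI protein known from fetal male germ cells, where it carries piRNAs against retrotransposons. PIWI-bound small RNAs usually start with U and are longer than microRNAs, and some of those in adult testis come from the 3' UTRs of protein-coding mRNAs.

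Scd1 (ENSMUSG00000037071.2) lies on the minus strand of chromosome 19, from 44468941 to 44482199. Its annotated 3' UTR, in the last exon, runs from 44468941 to 44472411 and is 3471 nt long with the stop codon included. Positions below count from 1 at the first base of the stop codon, in the direction of the gene. The deposited liver cluster runs 1382 nt past the annotated end, to 44467559. The lists print every sequence as it reads on the genome's plus strand, so those of Scd1 were reverse complemented, and the strand of the RNA is not given. The study called its somatic clusters on sense small RNAs. Read as sense, 57 WT and 16 Miwi2-/- sequences had a last A that does not match the genome. An antisense RNA with such an A would show a mismatched first T here, and 0 sequences of either library did. Among sequences without such an A, antisense ones could not be told apart from sense ones.

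The largest group of overlapping sequences lay at positions 169 to 219 (chr19:44472193-44472243, NCBIM37, minus strand, 3' UTR). They are shown because they give the deepest coverage of the region and because no Miwi2-/- sequence lay there. Of the 13 sequences, 12 are printed below, in lower case 5' to 3' with T for U, and a capital marks the base that does not match the genome.
WT liver 169 to 196: aataaatattttatttagctaggattaa
WT liver 175 to 197: tattttatttagctaggattaaA
WT liver 176 to 197: attttatttagctaggattaaA
WT liver 176 to 198: attttatttagctaggattaacA
WT liver 182 to 208: tttagctaggattaaccatgccacaaA
WT liver 182 to 211: Attagctaggattaaccatgccacaagaca
WT liver 182 to 211: tttagctaggattaaccatgccacaagaca
WT liver 183 to 211: ttagctaggattaaccatgccacaagaca
WT liver 186 to 210: gctaggattaaccatgccacaagaA
WT liver 189 to 212: aggattaaccatgccacaagacaA
WT liver 194 to 218: taaccatgccacaagacattatata
WT liver 203 to 219: cacaagacattatatat

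These sequences had many different ends. The list holds distinct sequences without read counts, so a ladder cannot be told apart from a dominant product with rare variants. The 13 had 10 different 5' ends and 10 different 3' ends, and were 17 to 31 nt long with a median of 25 nt. Of the 13, 12 ended in A, and in 7 that A was a mismatch to the genome. Of the 3' ends, only position 211 was shared by 3 sequences here.

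A second group, at positions 2470 to 2508, is shown because 3 of its 6 sequences ended on the same base, position 2497, after 3 different 5' ends.
WT liver 2470 to 2497: ttataacagtttccagatgaatgtacta
WT liver 2475 to 2497: acagtttccagatgaatgtacta
WT liver 2476 to 2497: cagtttccagatgaatgtacta
WT liver 2476 to 2498: cagtttccagatgaatgtacCaa
WT liver 2477 to 2500: agtttccagatgaatgtactaata

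Sequences of both liver libraries that shared an end are shown next, since no sequence was in both lists. A 5' end was shared at positions 974, 2137, 2216 and 2961, and the sequences at 3 of these are printed. At position 2075 a 3' end was shared by 2 WT sequences and 1 Miwi2-/- sequence.
WT liver 974 to 1002: aaacagctgacatttgtcggggacagata
Miwi2-/- liver 974 to 998: aaacagctgacatttgtcggggaca
WT liver 2216 to 2238: gaagtagaaaatctcatagaaaa
Miwi2-/- liver 2216 to 2235: gaagtagaaaatctcataga
WT liver 2961 to 2983: aagaaactcctgggctaagtatA
Miwi2-/- liver 2961 to 2987: aagaaactcctgggctaagtatctgaA
WT liver 2055 to 2075: gtattttagaaccatcaacca
WT liver 2058 to 2075: ttttagaaccatcaacca
Miwi2-/- liver 2054 to 2075: agtattttagaaccatcaacca

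In WT liver, Scd1 was among the 3' UTRs with the most distinct small RNAs. Its 137 sequences made up 3.21% of the list (Wilson 95% interval 2.72 to 3.78%), or 212 per 100000 distinct sequences that the study aligned uniquely (180 to 251). Intervals here cover counting error only. Among the 488 liver clusters, Scd1 ranked 3 after Vmp1 (217 sequences), whose 3' UTR holds the gene of the microRNA miR-21, and Errfi1 (157), an inhibitor of the EGF receptor. Albumin (Alb) followed with 100 sequences and the ubiquitin ligase Trim25 with 91. The median cluster held 5.

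In Miwi2-/- liver, 34 Scd1 sequences were listed, second to the 96 of Vmp1. Errfi1 had 16 and Alb 10, and the median cluster had 0. The 34 made up 6.07% of the list (4.38 to 8.36%), or 256 per 100000 uniquely aligned distinct sequences (183 to 357). The list share was thus 1.89 times that of WT liver and the value per aligned sequence 1.21 times. The choice of scale moved this ratio because the Miwi2-/- list was 0.131 times as long as the WT list while the library had 0.206 times as many aligned distinct sequences.

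Of all 488 liver clusters, 45.5% held at least 1 Miwi2-/- sequence, and 21.5% held more per aligned distinct sequence in Miwi2-/- than in WT liver. Scd1 was in both groups. Among the 34 clusters with at least 20 WT sequences, the Miwi2-/- to WT ratio per aligned distinct sequence had a median of 0.526 and ran from 0 to 2.15, and the 1.21 of Scd1 ranked 3. All 488 clusters were called from WT liver, and the 34 were chosen again by their WT number. That selection favours ratios below 1, so the 21.5%, the median and the rank are not a neutral background for Scd1. No test was made on this ratio, since the choice of the gene rests on the same numbers. Distinct sequences do not rise in step with reads, so a ratio between libraries of unequal depth is not a ratio of small RNA levels.

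**Figure D1:**
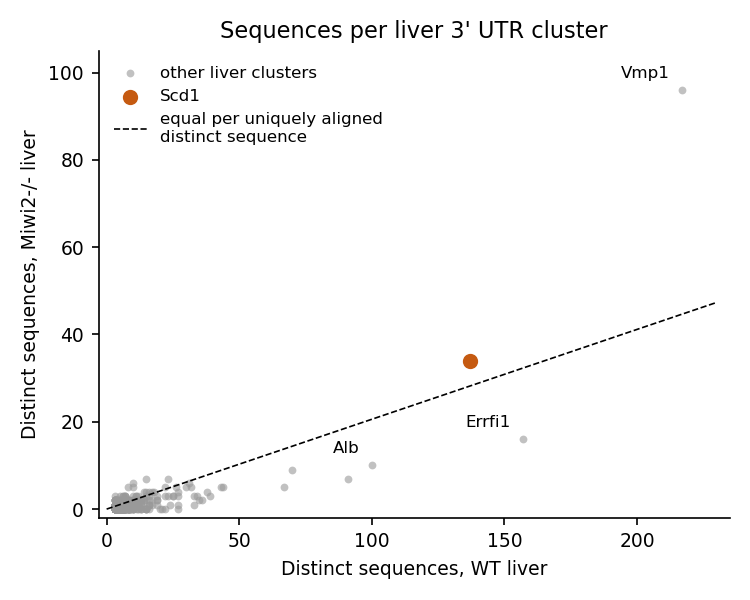
Distinct sequences in each of the 488 deposited liver 3' UTR clusters, in WT liver (x axis) against Miwi2-/- liver (y axis), 1 point a cluster. The dashed line marks equal numbers per uniquely aligned distinct sequence. Scd1, at 137 and 34, lies just above the line, while Errfi1 and Alb lie below it.

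The spleen lists could not hold Scd1. Every listed sequence overlapped a deposited cluster of its own tissue, and Scd1 is not among the 345 deposited spleen clusters. The absence of Scd1 there therefore says nothing of the level of its small RNAs in spleen. The same limit holds for the hepatocyte markers: 6 of 12 were liver clusters, with 200 WT and 23 Miwi2-/- sequences in all (Alb 100 and 10, fibrinogen beta chain Fgb 25 and 3, fetuin Ahsg 23 and 7, the transcription factor Hnf4a 22 and 0, apolipoprotein Apob 19 and 2, hemopexin Hpx 11 and 1), and none was a spleen cluster. Of 21900 protein-coding genes in the RefSeq table, 487 (2.22%) were liver clusters. Of 12 leukocyte markers and 8 adipocyte markers, 0 were clusters in either tissue. Of the erythroid markers, Alas2, the first enzyme of heme synthesis in red cells, was a spleen cluster with 3 WT sequences and no Miwi2-/- sequence. No sequence of Piwil4 was in any list, so the lists do not check the knockout.

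The WT liver sequences covered much of the 3' UTR. They ran from position 6 to 3438 within it, covered 49.9% of its bases and left no gap longer than 175 nt (positions 651 to 825). Of the 137, 135 lay in the annotated 3' UTR. The other 2 lay downstream, at positions 4008 to 4027 and 4824 to 4853, which is 537 to 556 nt and 1353 to 1382 nt past the annotated end. They are shown because they alone lie in the stretch that the cluster adds to the annotation.
WT liver 4008 to 4027: cacttggatgaaagctaata
WT liver 4824 to 4853: tttttttagtatctaaaacaatgactctca

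The last of these ends on the boundary of the deposited cluster, chr19:44467559-44467588. The study extended this boundary by a minimum density of sense small RNAs, so the match is not read as a result. The annotated 3' UTR ends 31 nt after the start of a polyadenylation signal AATAAA at position 3441, and no member lay between 3438 and 4008. On the strand of the gene, AATAAA was also present at positions 169, 278 and 2333, and its variant ATTAAA at 846 and, downstream, at 4283. A match is a description of the letters. AATAAA stood in the last 50 nt of 53.6% of 41668 annotated 3' UTRs and ATTAAA in that of 15.6%. These rates are a background only for the match at 3441, and the other matches have no comparison here.

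The sequences were unevenly spread along the 3' UTR. In WT liver 33 started in positions 1 to 500, 11 in 501 to 1000, 12 in 1001 to 1500, 15 in 1501 to 2000, 29 in 2001 to 2500, 13 in 2501 to 3000 and 22 in 3001 to 3500. The first, the fifth and the last of these windows had the most sequences, and their A and U content was 61.8, 60.2 and 59.8%, against 51.2 to 55.8% in the other 4. This is a description over 7 windows of 1 gene, with no test.

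In Miwi2-/- liver the same windows held 0, 6, 6, 3, 11, 6 and 2 sequences. The first began at position 635, and all 34 ended by 3129. The first 500 nt thus held 33 of 137 WT sequences (24.1%, 17.7 to 31.9%) and 0 of 34 Miwi2-/- sequences, an interval that reaches 10.2%. In the 176 other liver clusters of at least 3000 nt, 278 of 1936 WT sequences (14.4%, 12.9 to 16%) and 27 of 193 Miwi2-/- sequences (14%, 9.80 to 19.6%) started in the first 500 nt of the cluster. The window was chosen after the positions had been seen, so the difference in Scd1 was not tested.

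**Figure D2:**
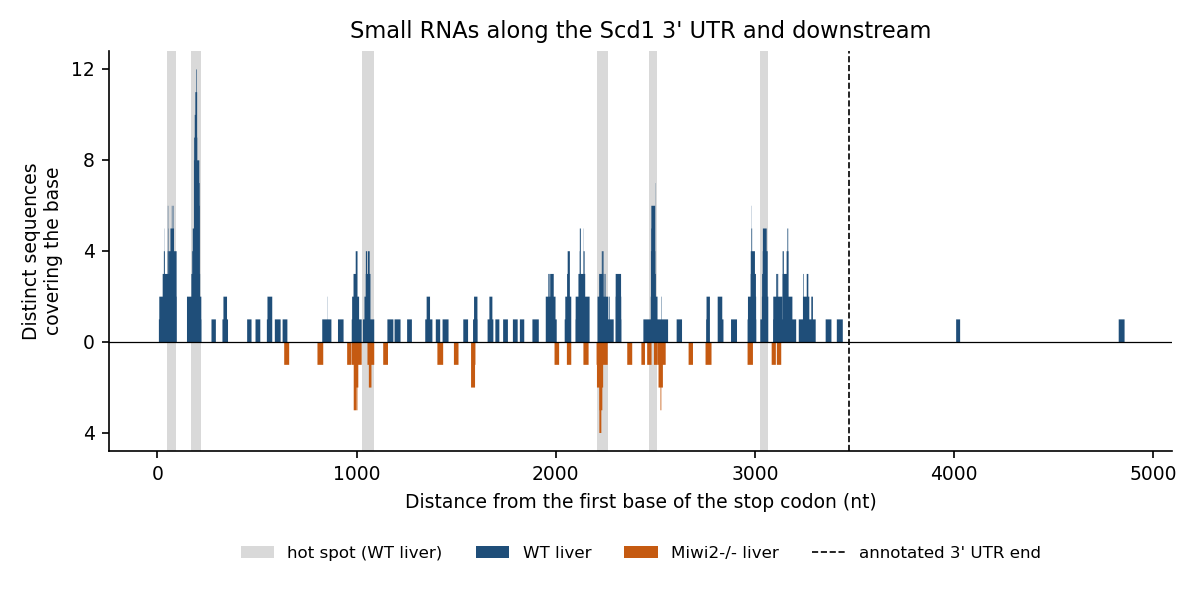
Number of distinct sequences that cover each base (y axis) against the distance from the first base of the stop codon in nt (x axis), WT liver above the zero line and Miwi2-/- liver below it. Grey bands are the 6 hot spots of WT liver and the dashed line is the annotated end of the 3' UTR; WT coverage peaks at 12 at positions 194 to 196, where Miwi2-/- coverage is 0.

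Hot spots were defined as chains of at least 5 WT liver sequences whose 5' ends lay at most 10 nt from the next. There were 6 among 66 chains, and the number rests on this definition: it was 3 with a step of 5 nt, 10 with 20 nt and 1 with a minimum of 10 sequences. The 6 held 42 of the 137 sequences (30.7%) on 8.27% of the bases of the 3' UTR. As these stretches were picked for holding many sequences, the last 2 values are a description. Another 2 chains held 4 sequences, just under the minimum, and 35 held 1.

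The hot spots lay at positions 50 to 95 (8 sequences), 169 to 219 (13), 1030 to 1086 (5), 2208 to 2261 (5), 2470 to 2508 (6) and 3025 to 3064 (5). Coverage was deepest in the second, where 12 sequences covered positions 194 to 196. The A and U content was 64.9 to 76.5% in the first 5 hot spots and 45.0% in the sixth, against 55.1% over the region. At positions 1030 to 1086 all 5 sequences started with A, and at 3025 to 3064, where the median length was 29 nt, 4 of 5 had at least 27 nt.

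The predicted folding of the hot spots lay within the range of the region. The minimum free energy of an 80 nt window centred on each, computed with RNAfold, was -9.5 to -16.6 kcal/mol. Over 478 windows of the region it had a median of -15.1 and ran from -30 to -2.03 kcal/mol. Between 41.4 and 84.5% of all windows had a lower energy than a given hot spot. ATTTA, the core of AU-rich elements that destabilise mRNAs, stood 5 times in the 3' UTR (positions 48, 107, 181, 2318 and 2468), or 1.44 per kb, against a median of 1.59 per kb over 3187 annotated 3' UTRs of at least 3000 nt, of which 97.4% held it. Of its 5 matches, those at 48, 181 and 2468 overlapped a hot spot.

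Few Miwi2-/- sequences shared an end with a WT sequence. Of 34, 4 shared a 5' end, 5 shared a 3' end and 0 were identical to a WT sequence. At least 1 base was shared with a WT sequence by 30 (88.2%), which is not read as a result, since WT sequences covered 49.9% of the bases of the 3' UTR. Among the other sequences of the Miwi2-/- list, 114 of 526 (21.7%) were also in the WT list, and 37 of 430 (8.60%) once those at Mir21 were left out. Of the hot spots of WT liver, those at 1030 to 1086, 2208 to 2261 and 2470 to 2508 were overlapped by 2, 5 and 2 Miwi2-/- sequences, and the other 3 by none. The deepest Miwi2-/- coverage was 4, at positions 2217 to 2226.

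Length differed from that of the other genes. Scd1 sequences of WT liver had a median of 26 nt (quartiles 23 and 29, range 17 to 34 nt) and most often 24 or 30 nt, with 15 of each. Those of the other sequences of the list had a median of 24 nt and most often 23 nt. Of the Scd1 sequences 66 of 137 (48.2%, 40 to 56.5%) were 27 nt or longer, against 29.8% of the others (28.4 to 31.2%), a difference of 18.4 points (two-sided Fisher's exact test, p = 1.09e-05, Benjamini-Hochberg adjusted p = 8.69e-05 over 8 tests). It was 16.8 points with Mir21 left out (Fisher's exact test, adjusted p = 4.37e-04). The labels give a gel band of about 24 to 31 nt, and the lengths ran past it, from 17 to 34 nt in WT liver and from 17 to 30 nt in Miwi2-/- liver. In WT liver 40.1% of the Scd1 sequences had 21 to 25 nt, against 56.5% of the others.

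The test treats overlapping sequences as independent, and other liver genes came close to the same share. Among the 34 clusters with at least 20 WT sequences, the share of 27 nt or longer ran from 1.38% in Vmp1 to 56% in Rbp4, with a median of 33.8%, and Scd1 ranked 3. The retinol-binding protein gene Rbp4 (14 of 25) was the highest, and the transcription factor gene Cebpa (47.8%), the methionine adenosyltransferase gene Mat1a (45.5%) and Alb (45%) were below Scd1.

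In Miwi2-/- liver, Scd1 sequences were shorter. Their median was 22 nt (quartiles 21 and 25, range 17 to 30 nt), the most frequent length was 22 nt with 7 sequences, and 6 of 34 (17.6%, 8.35 to 33.5%) were 27 nt or longer. The others of the list were at 18.1% (Fisher's exact test against Scd1, adjusted p = 1). With Mir21 left out they were at 22.1% (Fisher's exact test, adjusted p = 0.816). From WT to Miwi2-/- liver the share of Scd1 fell by 30.5 points (two-sided Fisher's exact test, p = 0.00162, 1 test), and it fell by 29.9 points where a terminal A was left out of every length (p = 8.42e-04) and by 29.7 points over distinct 5' ends (p = 0.00251). The share of the other sequences fell by 11.7 points between the same libraries, from 29.8 to 18.1%. With Mir21 left out it fell from 31.3 to 22.1%. Whether Scd1 differed from the other sequences in its fall was not tested. The tests take overlapping sequences of 1 library per genotype as independent, so their p-values do not measure a difference between genotypes. Library and genotype cannot be told apart.

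**Figure D3:**
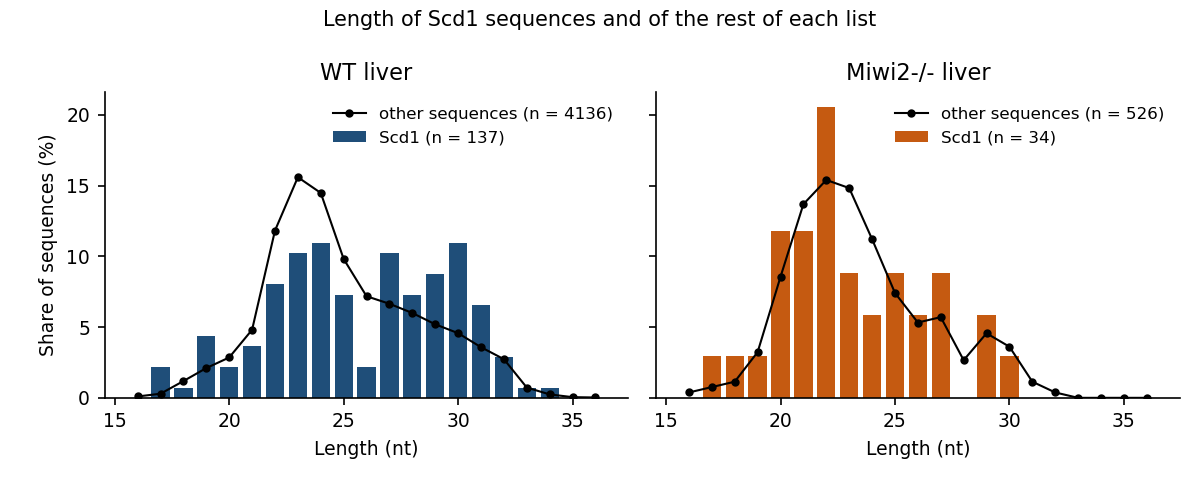
Share of sequences (%, y axis) at each length (nt, x axis) in WT liver (left) and Miwi2-/- liver (right), bars for Scd1 and the black line for all other sequences of the same list. In WT liver the Scd1 bars reach past the line from 27 to 31 nt, and in Miwi2-/- liver the tallest bar is at 22 nt.

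The longer WT sequences lay along the whole 3' UTR. Of those that started in positions 1 to 500, 12 of 33 (36.4%) had at least 27 nt, in 501 to 2000 17 of 38 (44.7%), and from 2001 on 37 of 66 (56.1%). The Miwi2-/- values of the last pair of stretches were 3 of 15 (20%) and 3 of 19 (15.8%). The first 500 nt, which Miwi2-/- sequences did not reach, thus held the lowest share of long WT sequences. In hot spots 17 of 42 WT sequences (40.5%) had at least 27 nt and outside them 49 of 95 (51.6%).

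**Figure D4:**
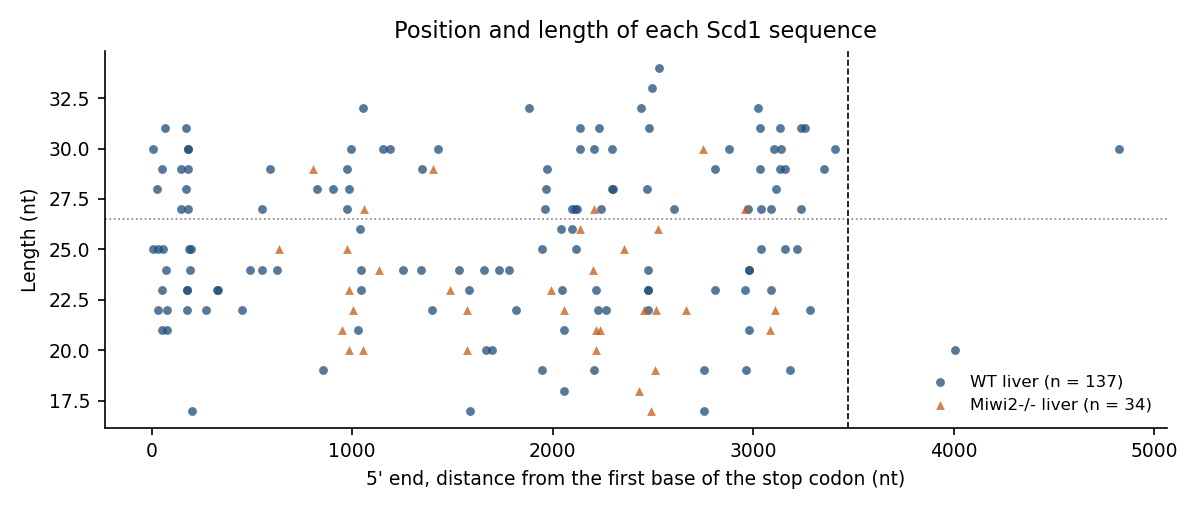
Length (nt, y axis) of each Scd1 sequence against the position of its 5' end (nt from the first base of the stop codon, x axis), circles for the 137 of WT liver and triangles for the 34 of Miwi2-/- liver. The dotted line separates 26 from 27 nt and the dashed line is the annotated end of the 3' UTR. WT sequences of 27 nt or longer are spread over the 3' UTR, and only 6 triangles lie above the dotted line.

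At the 5' end, A was over-represented in WT liver. The 137 sequences had 126 distinct 5' ends, and 54 of these (42.9%) were A, against 25.5% of the bases of the region (exact binomial test, two-sided, adjusted p = 1.79e-04 over 8 tests). C fell short, with 15 (11.9%) against 21.8% (exact binomial test, adjusted p = 0.0266). G was at 19 (15.1%) against 23.0% (exact binomial test, adjusted p = 0.0909). U, the usual first base of piRNAs, was at 38 (30.2%) against 29.6% (exact binomial test, adjusted p = 0.922).

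The excess of A was not shown to be greater than in the rest of the list. By distinct sequences, 44.5% of Scd1 and 35.1% of the other sequences started with A (Fisher's exact test, adjusted p = 0.0773), and 29.9 and 37.6% with U (adjusted p = 0.145). Among the 34 larger clusters, the share with a first A ran from 6.45% in Vmp1 to 74.2% in Stard4, a cholesterol transfer protein gene, with a median of 36%, and 7 clusters were above Scd1. In the genome, the base just before the 5' ends was A in 32.5%, U in 30.2%, C in 23.0% and G in 14.3%.

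In Miwi2-/- liver, with 32 distinct 5' ends, A was first in 12 (37.5%), G in 8 (25%), C in 6 (18.8%) and U in 6 (18.8%). No base passed the threshold against the composition of the region (exact binomial tests, adjusted p = 0.306 to 0.922). By distinct sequences U was first in 6 of 34 (17.6%) against 46.2% of the other sequences (Fisher's exact test, adjusted p = 0.00441). That difference was lost with Mir21 left out, where the others were at 36.5% (Fisher's exact test, adjusted p = 0.104), and over distinct 5' ends (adjusted p = 0.218).

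**Figure D5:**
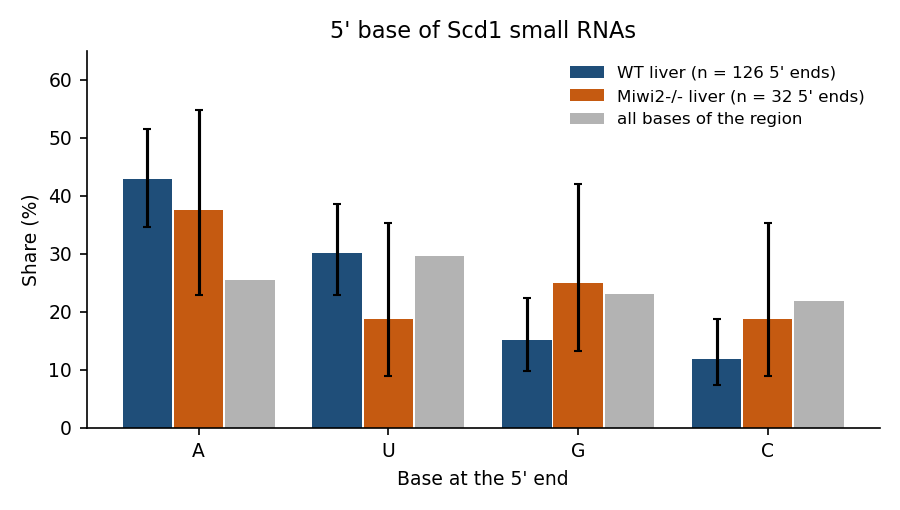
Share (%, y axis) of each base at the distinct 5' ends of Scd1 sequences in WT liver (126 ends) and Miwi2-/- liver (32 ends), with Wilson 95% intervals, beside the share of that base in the region. A stands above the region in WT liver, at 42.9 against 25.5%, and C below it.

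At the 3' end most sequences had an A. It was the last base of 116 of 137 in WT liver (84.7%) and of 30 of 34 in Miwi2-/- liver (88.2%). In 57 WT and 16 Miwi2-/- sequences (41.6 and 47.1% of all 137 and 34) the A was the single mismatch to the genome. In 59 and 14 the genome has an A there. The other sequences of the lists were alike, since without Mir21 86.0 and 84.4% ended in A and 47.3 and 47.9% in a mismatched A. Among Scd1 sequences that match the genome throughout, 55 of 71 and 13 of 16 ended in A. The A may not be part of the RNA, and its origin was not tested, so lengths are also given without it: with every terminal A left out, 38.7% of WT and 8.82% of Miwi2-/- sequences had at least 27 nt.

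Other mismatches were few. Of 66 WT sequences with a mismatch, 1 had it at another last base, 2 at the first base and 6 within. Among the last were those at positions 2243 to 2269, 2528 to 2561 and 3409 to 3438. In each of these the mismatch was an A followed only by a final tc, and its origin was not tested. Of 18 Miwi2-/- sequences with a mismatch, 1 had it at another last base and 1 within. In the genome, the base after the last one was U for 39.0% of 118 distinct 3' ends in WT liver. It was U for 41.2% of 34 in Miwi2-/- liver, and the region had 29.6% U. Where a final A is not part of the RNA, the base under that A would be the one that follows. Over the same ends, the base under the last one was U for 21.2% in WT and 23.5% in Miwi2-/- liver. An excess of U after the RNA is therefore not read from these values.

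The genes with the most alike distribution over the 4 libraries were found among 47 with at least 10 WT liver sequences and 20 in all. Likeness was the sum of absolute differences between profiles per 100000 aligned distinct sequences, each scaled to a sum of 1. The nearest was Gpx1, a glutathione peroxidase (16 WT and 4 Miwi2-/- liver sequences, distance 0.00363), then the proteoglycan decorin Dcn (17 and 4, 0.0265), the hypoxia factor Epas1 (22 and 5, 0.0438), the fibrinogen gamma chain Fgg (18 and 4, 0.0550) and Ahsg (23 and 7, 0.0998). None of these had a spleen sequence. The spleen lists hold only sequences of spleen clusters, so this is not read as a shared trait. Between genes without spleen sequences, the distance rests only on the ratio of the liver libraries, the numbers by which Scd1 was chosen. With 4 to 7 sequences in the smaller library their ratios are imprecise.

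Of 35 other genes of fatty acid and sterol synthesis, 10 were liver clusters, with 138 WT and 16 Miwi2-/- sequences in all. The list's share of liver clusters stands beside the 2.22% of all protein-coding genes. Of these 10, 8 held at least 1 Miwi2-/- sequence, beside the 45.5% of all liver clusters, and their median of 8 WT sequences was above the 5 of all clusters. The nuclear receptor gene Ppara, best known as a regulator of fatty acid oxidation and not of synthesis, had the most (67 WT and 5 Miwi2-/-), and without it the list held 71 WT and 11 Miwi2-/- sequences. It was followed by the acyltransferase gene Gpam (14 and 2) and the master regulator gene Srebf1 (11 and 0). The elongases Elovl5 (11 and 3) and Elovl6 (7 and 1) and the desaturase Fads1 (9 and 1) also act on fatty acyl chains. The ATP citrate lyase gene Acly had 6 and 2, the acetyl-CoA synthetase gene Acss2 3 and 1, and Insig2, a retention factor for sterol regulators, 3 and 0. Elovl5 was also a spleen cluster, with 3 WT sequences. The paralogs Scd2, Scd3 and Scd4 were not clusters in either tissue, so the lists give no values for them.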

How the data were processed

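The authors size selected RNA, made Illumina small RNA libraries, removed the adapter, collapsed identical reads, removed known non-coding RNAs with Bowtie and retained sequences that aligned uniquely to NCBI37/mm9, allowing 1 mismatch. The submitters' processing notes name CASAVA 1.8, cutadapt, Bowtie and bedtools. For each library the authors deposited its distinct sequences, limited to 3' UTR clusters, and the clusters' coordinates for WT liver and WT spleen. The lists hold no counts of reads, no positions and no gene names. The study gives 64572, 129176, 13288 and 25218 uniquely aligned distinct sequences (174904, 273960, 22536 and 41644 reads) for WT liver, WT spleen, Miwi2-/- liver and Miwi2-/- spleen. Labels give a gel range of about 24 to 31 nt, and the study's methods a wider one.

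Sequences were placed on NCBIM37 with at most 1 mismatch, without gaps (Python 3.11.15, numpy 2.4.6, numba 0.67.0). Of 1305 sequences simulated from chromosome 19 with at most 1 mismatch, 100% were found on that chromosome. Those with several placements or a better one were counted as found, so single placement over the whole genome was not checked. All listed sequences had a single best placement and were assigned to the deposited clusters by overlap, with gene symbols from a RefSeq table of build GRCm38 used for names only. 3' UTRs came from GENCODE M1. Tests were exact binomial and Fisher's exact tests (scipy 1.17.1), two-sided, adjusted by Benjamini-Hochberg, with a threshold of 0.05; they treat distinct sequences as independent. Folding used ViennaRNA 2.7.2 (80 nt windows, steps of 10 nt), and figures matplotlib 3.10.9. The gene, its members, the lists and the tests were chosen with earlier results of these data known. The 500 nt windows, the lengths by position and the shares by gene were added after the values had been seen. Genes were named as the 5 most alike in profile, the 35 of fatty acid and sterol synthesis, the cell type markers, and the top clusters by number or by share of long sequences or of a first A, the last chosen after their values were seen. Some genes that these rules name are not reported here.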

Additional observations from a re-analysis of the deposited data

How the results depend on the processing

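Of 57 alternatives over 26 results, 38 left the value or call in place. With exact matches only, 71 WT and 16 Miwi2-/- sequences remained members, and the share of the WT list was 3.95%. Per uniquely aligned distinct sequence the shares were 0.212% in WT and 0.256% in Miwi2-/- liver, by construction on a longer base. With the mismatched terminal A left out the most frequent WT lengths were 22 and 30 nt; with any terminal A left out they were 22 and 29 nt, and 21 nt in Miwi2-/- liver. Hot spots numbered 3 with a step of 5 nt, 10 with 20 nt, and 1 with a minimum of 10 sequences. The deficit of G at WT 5' ends passed the threshold over distinct sequences (-9.15 points). Against the annotated 3' UTR alone the difference for WT U was -0.70 points, in place of 0.53; neither passed the threshold. For Miwi2-/- U the difference from the other sequences was -18.9 points with Mir21 left out and -17.2 over distinct 5' ends, both past the threshold no longer. For the Miwi2-/- mismatched terminal A it turned from 7.32 to -0.85 and -1.08 points under these 2 settings, none past the threshold. The causes were not tested. No paired analysis was possible because each group has 1 library, and leaving out a library would leave a group empty.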
